A study of Homo sapiens with 4 samples.

Results

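The 8 genes described here encode the upstream kinases and negative regulators of the Hippo pathway: STK4, STK3, SAV1, LATS1, LATS2, NF2, WWC1 and AMOTL1. DNA bound by YAP and by TEAD1 was mapped in the human cell line H69 by chromatin immunoprecipitation and sequencing (ChIP-seq), with 1 library for each of 2 YAP antibodies (Santa Cruz and Avruch) and 1 for TEAD1. All libraries came from this 1 line, and the labels name no treatment or genetic change. H69 is known as an immortalised line of human bile duct epithelial cells, a tissue that the labels do not give. The labels call the second YAP antibody and the TEAD antibody only YAP and TEAD, and the names Avruch and TEAD1 come from the design text. An IgG library is also described, and it was not analysed here.

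A peak was counted for a gene when its centre lay in the gene body or within 50 kb of it. The gene bodies, in build hg19 and given to the nearest 1 kb, were STK4 on chromosome 20 (43595 to 43709 kb), SAV1 on chromosome 14 (51100 to 51135 kb), LATS1 on chromosome 6 (149979 to 150039 kb), LATS2 on chromosome 13 (21547 to 21636 kb), NF2 on chromosome 22 (30000 to 30095 kb), WWC1 on chromosome 5 (167719 to 167899 kb), AMOTL1 on chromosome 11 (94502 to 94610 kb) and STK3 on chromosome 8 (99467 to 99838 kb). Together the 8 windows spanned 1852 kb. They held 52 of the 61551 peaks in the 3 lists, namely 40 of 48962 TEAD1 peaks, 12 of 10118 Avruch peaks and 0 of 2471 Santa Cruz peaks. A peak in a window lies near the gene and is not thereby assigned to it, since neighbouring genes share some of these windows. Whether a peak outside a gene body lies within a neighbouring gene was not resolved.

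In the Hippo pathway, the MST kinases with their scaffold SAV1 activate the LATS kinases, and the LATS kinases phosphorylate YAP, which keeps it out of the nucleus. YAP has no DNA-binding domain of its own and is brought to DNA by TEAD factors. Several inhibitors of YAP, LATS2 and NF2 among them, are known as genes that YAP and TEAD factors can themselves activate, a negative feedback that makes binding near these genes of interest.

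Of the 8 genes, LATS2 and NF2 had a TEAD1 peak within 1 kb of the gene start, and their promoters are shown for that reason. The sequences are RefSeq's for build GRCh38.p14, whereas the peaks are in hg19, so they show the promoters and not the exact bases under the peaks. Each runs from 250 bases before the annotated start to 20 bases after it, read in the direction of transcription, LATS2 from chr13:21061567-21061836 on the minus strand and NF2 from chr22:29603383-29603652 on the plus strand. Capitals mark the TEAD motif GGAATG, which was searched on both strands together with the AP-1 motif TGANTCA.
LATS2: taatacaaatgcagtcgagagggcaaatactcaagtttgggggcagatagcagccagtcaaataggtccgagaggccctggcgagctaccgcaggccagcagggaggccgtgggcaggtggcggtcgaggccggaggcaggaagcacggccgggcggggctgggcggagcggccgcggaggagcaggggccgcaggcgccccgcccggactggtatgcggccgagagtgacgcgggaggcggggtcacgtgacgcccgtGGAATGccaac
NF2: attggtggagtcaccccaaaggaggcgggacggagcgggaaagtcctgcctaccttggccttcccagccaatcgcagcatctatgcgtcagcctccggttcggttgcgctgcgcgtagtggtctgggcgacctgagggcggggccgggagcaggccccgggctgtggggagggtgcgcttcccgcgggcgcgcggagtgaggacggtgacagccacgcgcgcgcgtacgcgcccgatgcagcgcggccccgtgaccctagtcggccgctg

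The LATS2 promoter held GGAATG once, beginning 10 bases into the transcript. RefSeq's promoter table, which spans 250 bases before to 50 bases after each start, had 9 entries for 7 of the 8 genes, and this was the only one of the 9 with GGAATG. Over all 35116 promoters of the table, 14.0% held this motif. TGANTCA was found in 1 of the 9 entries, 245 bases before a LATS1 start, and in 7.71% of all promoters. Both stretches shown are rich in G and C, at 69.3% for LATS2 and 71.5% for NF2. A match of such short letters is a description and does not show binding.

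TEAD1 peaks lay near every one of the 8 genes, YAP peaks of the Avruch antibody near 5 of them, and Santa Cruz peaks near none. For scale, the placed chromosomes were divided into tiles of 200 kb, of which 76.4% held a TEAD1 peak, 39.8% a YAP peak of either antibody and 9.94% a Santa Cruz peak. The windows of the genes are 135 to 471 kb long, so shares of tiles and of windows are not directly comparable. At the mean density of the Santa Cruz list, 1.37 peaks would fall in 1852 kb, so the count of 0 near these genes is not a result about them.

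No TEAD1 peak in these windows overlapped a YAP peak. The share was 0 of 40, which allows up to 7.5%. Of all TEAD1 peaks, 3.59% overlapped a YAP peak of either antibody, a share within what 40 peaks allow. Seen from YAP, 0 of 12 Avruch peaks overlapped a TEAD1 peak, which allows a share of up to 25%, against 19.4% of the whole Avruch list. These limits cover counting error only.

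**Figure D1:**
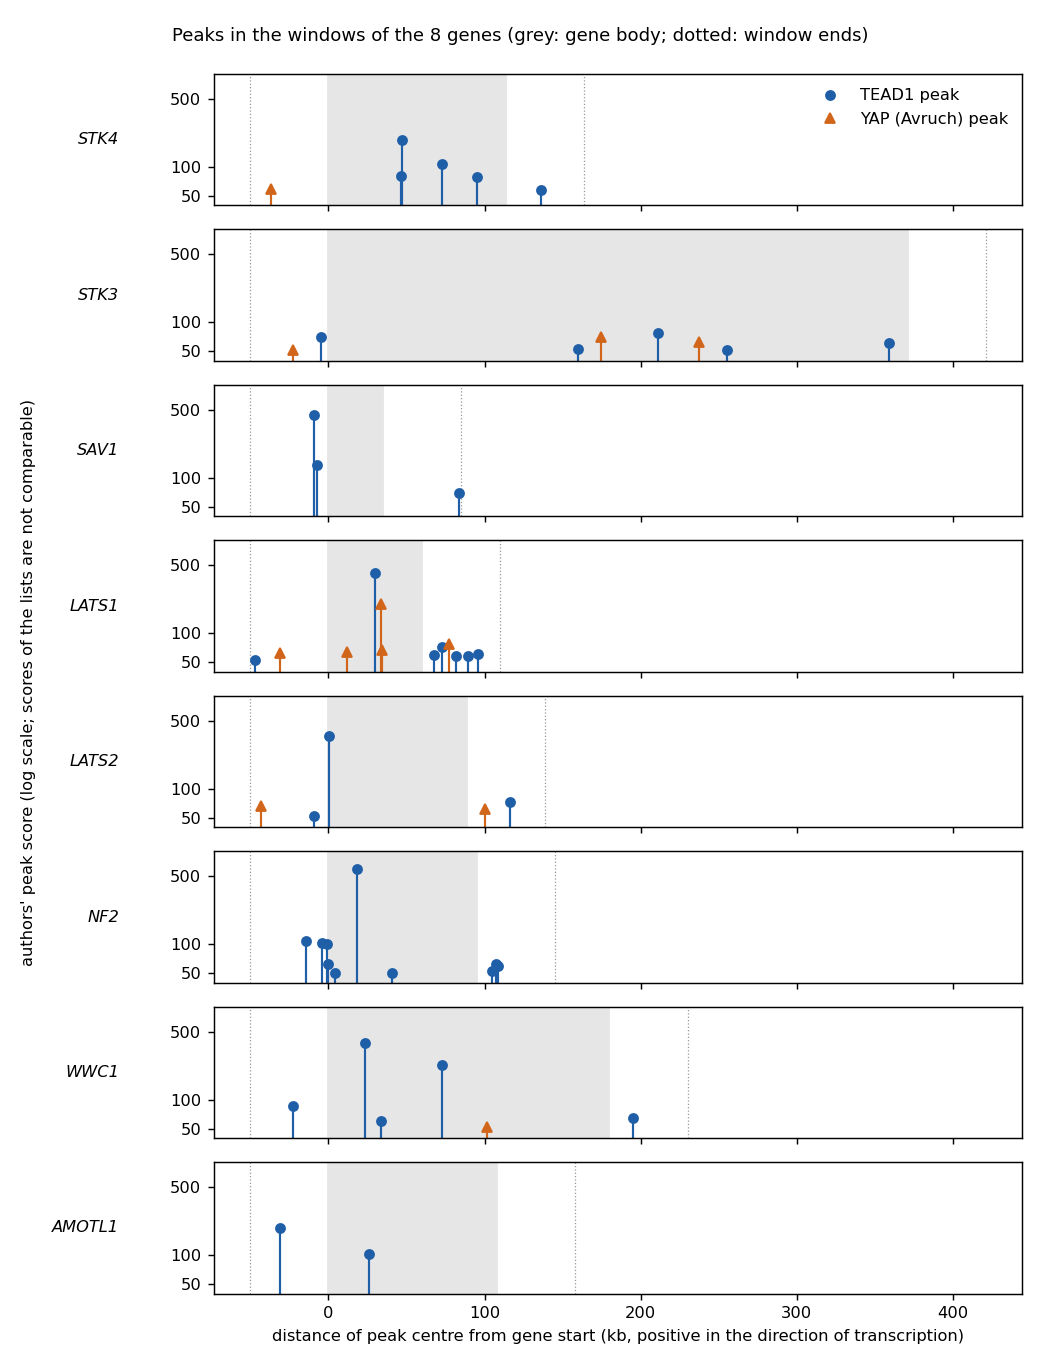
Peaks in the window of each gene, plotted by the distance of the peak centre from the gene start (kb, positive in the direction of transcription) and by the authors' score on a log scale; circles are TEAD1 peaks, triangles Avruch YAP peaks, grey the gene body and dotted lines the window ends. LATS2 has a strong TEAD1 peak at its start, SAV1 shortly before it, and LATS1, NF2 and WWC1 within the gene.

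The windows of the MST kinases held no TEAD1 peak of the strongest 5% of the list. The score is the authors' own value, has no stated unit and ranks peaks only within a list. In the TEAD1 list it ran from 50 to 3219.44 with a median of 67.1, and the strongest 5% began at 263.47. STK4, which encodes MST1, had 5 TEAD1 peaks, of which 4 lay in the gene body. The strongest lay on chromosome 20 (43641619 to 43642047), 46.8 kb into the gene, with a score of 188.11, above 91.8% of the list. A second peak with a score of 80.14 lay 25 bp to its left, and the others, 72.5, 95.1 and 135.8 kb from the start, scored 105.42, 78.39 and 57.0. Thus the 4 peaks inside STK4 all scored above the list median and the one after its end below it. The 1 Avruch peak of this window lay 36.8 kb before the gene start, towards the neighbouring gene TOMM34, with a score of 58.51, below the Avruch median of 63.75. The TEAD1 peak nearest to it was 19.1 kb away.

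STK3, which encodes MST2, is the longest of the 8 genes at 371 kb, and its strongest TEAD1 peak had the lowest score of the 8 genes' strongest peaks. Its 5 TEAD1 peaks scored 51.9 to 77.76, of which 2 were above the list median. The RefSeq promoter table used here gives the strand of the other 7 genes and has no entry for STK3. The strand of STK3, which sets the end taken as its start and every distance from it, was taken from general knowledge. The peak nearest to the gene start so placed lay 5.03 kb before it (chromosome 8, 99842860 to 99843198, score 70.25), and the strongest lay 211.2 kb into the gene. The 3 Avruch peaks scored 51.35, 62.96 and 69.65. They lay 22.6 kb before the start and 237.1 and 174.8 kb into the gene, each 14.6 to 18.2 kb from the nearest TEAD1 peak. Neither list therefore placed a peak of its strongest 5% near STK3.

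SAV1, the scaffold that joins the MST kinases to LATS, had 3 TEAD1 peaks and no peak in its gene body. A pair of them lay before the gene start, separated by 1.62 kb. The stronger, 9.42 kb before the start (chromosome 14, 51144235 to 51144611), scored 441.98, the second highest among the 40 TEAD1 peaks and above 97.7% of the list. The other, 7.46 kb before the start (51142312 to 51142615), scored 135.68. The third peak, score 68.76, lay 83.6 kb from the start, after the gene end. No YAP peak lay in this window. The nearest Avruch peak was 351.2 kb from the gene body and the nearest Santa Cruz peak 1880 kb. The gene next to SAV1 on the side of the pair is NIN, and whether the pair lies between the genes or within NIN was not resolved here.

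LATS1, a kinase that phosphorylates YAP directly, was the gene with the most YAP peaks, 5 of the 12. All 5 came from the Avruch antibody, with scores of 61.86, 64.32, 66.83, 76.6 and 201.31. The highest of them, on chromosome 6 (150004998 to 150005672), was 675 bp wide against a median of 149 bp for the Avruch list, and its score exceeded 97.3% of that list. It was the only one of the 12 within the strongest 5% of Avruch peaks, which began at 137.03. A narrower Avruch peak (150004626 to 150004938, score 66.83) stood 59 bp beside it. Both lay 33.7 to 34.2 kb into the gene.

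The strongest TEAD1 peak of LATS1 lay close to these YAP peaks without touching them. It was found 29.5 kb into the gene (150009250 to 150009719) with a score of 412.92, above 97.4% of the TEAD1 list, and 3.58 kb separated it from the stronger Avruch peak. This was the smallest gap between a TEAD1 and a YAP peak near any of the 8 genes. It was also the only TEAD1 peak in the LATS1 gene body. The other 6 scored 53.29 to 72.8, of which 1 was above the median. After the gene end, towards KATNA1, 5 of them formed a run of 28.3 kb with gaps of at most 10 kb, called a cluster here. Its scores were 57.81 to 72.8, and whether it lies between the genes or within KATNA1 was not resolved here. An Avruch peak with a score of 76.6 lay inside this run, 4.26 kb from one TEAD1 peak and 4.40 kb from the next. Within 10 kb of the LATS1 start there was no peak of any list.

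LATS2, the second LATS kinase, had a strong TEAD1 peak at its start. This peak (chromosome 13, 21635420 to 21636010) was 591 bp wide and scored 343.11, above 96.6% of the list. Its centre lay 0.286 kb from the gene start, which is less than the 1 kb to which the start was known here, so the peak covers or adjoins it. Of the 40 TEAD1 peaks it was the only one of the strongest 5% that lay within 1 kb of a start, and the promoter sequence shown above, with GGAATG in the first transcribed bases, belongs to this start. The other 2 TEAD1 peaks were weaker, with scores of 52.91 at 9.58 kb before the start and 73.68 after the gene end. The 2 Avruch peaks were far from the start, 43.4 kb before it with a score of 65.48 and 100.5 kb after it, beyond the gene end, with a score of 61.77. The TEAD1 peak at the start was 43.3 kb from the nearest Avruch peak.

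The LATS kinases thus differed in where the strong TEAD1 peak lay, at the start in LATS2 and 29.5 kb inside the gene in LATS1. With 1 library, this difference in position has no replicate check.

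NF2, which encodes merlin, an activator of the LATS kinases at the cell membrane, had the most TEAD1 peaks, 10, and no YAP peak. The strongest TEAD1 peak of all 8 windows lay 18.1 kb into this gene (chromosome 22, 30017600 to 30018590). It was 991 bp wide, the widest of the 40, and scored 593.03, above 98.6% of the list. A cluster of 4 peaks surrounded the gene start over 8.15 kb. With the start as given here, its members lay 3.92, 1.12 and 0.284 kb before it and 3.96 kb after it. They scored 102.48, 101.06, 62.03 and 51.04. The peak nearest to the start (29999556 to 29999878) thus had a score below the list median, unlike the one at LATS2. Its distance of 0.284 kb is less than the 1 kb to which the start was known, so its side of the start is not resolved.

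A further TEAD1 peak lay 14.3 kb before NF2, towards NIPSNAP1, with a score of 107.24, and 1 lay 40.8 kb inside with a score of 50.03, near the lowest of the list. A cluster of 3 weak peaks (53.29 to 62.91) lay after the gene end, towards CABP7. The Avruch peak nearest to NF2 was 172.0 kb from the gene body and the nearest Santa Cruz peak 429.9 kb. At the mean densities of the lists, 3.07 TEAD1, 0.615 Avruch and 0.144 Santa Cruz peaks would fall in the NF2 window. The absence of YAP peaks there is therefore not a result about NF2.

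WWC1, which encodes KIBRA, a partner of merlin, had 5 TEAD1 peaks, of which 3 lay in the gene body. The strongest was 23.1 kb into the gene (chromosome 5, 167741876 to 167742372) and scored 380.63, above 97.1% of the list. A second peak 72.5 kb into the gene (167791192 to 167791715) scored 225.23, above 93.6%. The others scored 85.88 at 22.6 kb before the start, 60.15 at 33.5 kb inside and 65.4 after the gene end. The only YAP peak was an Avruch peak 101.7 kb into the gene with a score of 52.76, above only 7.75% of the Avruch list. It lay 28.9 kb from the nearest TEAD1 peak, the largest such gap among the 12. No TEAD1 peak lay within 10 kb of the WWC1 start.

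AMOTL1, an angiomotin family protein that binds YAP and holds it in the cytoplasm, had 2 TEAD1 peaks, the fewest of the 8 genes. One lay 31.3 kb before the gene start (chromosome 11, 94470491 to 94470855) and scored 189.46, above 91.9% of the list. The other lay 25.9 kb into the gene (94527668 to 94528161) and scored 102.41, above 78.9%. Both were above the list median and neither was among the strongest 5%. No YAP peak lay in the window, and the nearest Avruch peak was 398.3 kb from the gene body.

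Over all 8 genes, the typical TEAD1 peak was close to the list's typical peak in strength. The median score was 71.5 against 67.1 for the whole list, and 22 of the 40 peaks exceeded the list median (55.0%, Wilson 95% interval 39.8 to 69.3, against 50% by construction). At the upper end, 5 of the 40 belonged to the strongest 5% of the list (12.5%, 5.46 to 26.1, against 5% by construction). These 5 peaks were spread 1 each over NF2, SAV1, LATS1, WWC1 and LATS2, in falling order of score. A peak of this class was present in the windows of 5 of the 8 genes and in 11.6% of the 200 kb tiles. Windows and tiles differ in length, so these shares are not directly comparable. The count of such peaks was made after the scores had been seen, and it is a description without a test.

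**Figure D2:**
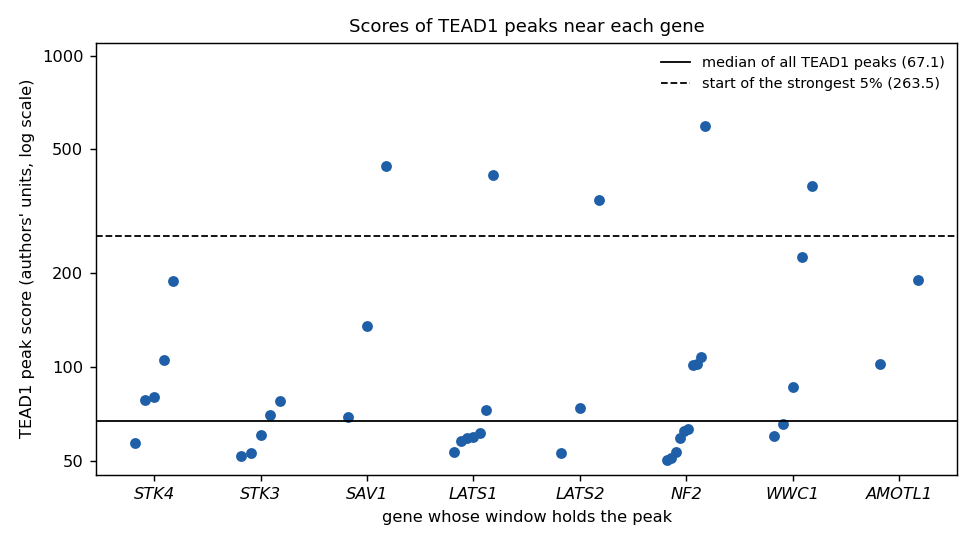
Score of each TEAD1 peak by gene, on a log axis, with the median of all TEAD1 peaks (solid line, 67.1) and the start of the strongest 5% (dashed line, 263.5). NF2, SAV1, LATS1, WWC1 and LATS2 each have 1 peak above the dashed line, while STK4, STK3 and AMOTL1 have none.

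Position within the gene also varied. Of the 40 TEAD1 peaks, 17 lay in gene bodies, 11 before a gene start and 12 after a gene end, with gene ends known to 1 kb. That is 1.62 per 100 kb of gene body and 2.88 per 100 kb of flank. Of the 23 peaks in flanks, 7 were at NF2 and 6 at LATS1, and the difference between body and flank was not tested. The peaks within 1 kb of the LATS2 and NF2 starts could fall on either side. Within 10 kb of a start there were 9, at LATS2, NF2, SAV1 and, with its strand as taken here, STK3. The 12 Avruch peaks were divided into 6 in gene bodies and 6 outside, and none lay within 10 kb of a gene start. In 12 of the 40 cases TEAD1 peaks belonged to clusters (30%, 18.1 to 45.4), against 29.3% of the whole list, and all 12 were at LATS1 and NF2.

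In density, NF2 and LATS1 stood highest for TEAD1. There were 5.13 TEAD1 peaks per 100 kb at NF2 (exact Poisson 95% interval 2.46 to 9.43) and 4.38 at LATS1 (1.76 to 9.01), against 1.57 over the placed chromosomes. In the other genes the density was 0.962 at AMOTL1, 1.06 at STK3, 1.59 at LATS2, 1.79 at WWC1, 2.22 at SAV1 and 2.34 at STK4, each with an interval that included 1.57. Neighbours in this order all had overlapping intervals. The intervals treat peaks as independent, although all 12 TEAD1 peaks in clusters lay at NF2 and LATS1. These genes were also singled out as the highest of 8 windows. At least as many TEAD1 peaks as at NF2 were present in 6.39% of the 200 kb tiles, and at least as many as at LATS1 in 13.7%. The NF2 window is 195 kb long and the LATS1 window 160 kb, so these shares are a rough scale only. Over the 8 windows together the density was 2.16 (1.54 to 2.94), an interval that included the list's mean, and 1.81 with NF2 left out. The list's mean counts gene-poor stretches and assembly gaps as well, so it is a low standard for windows around genes.

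For the Avruch antibody, LATS1 had the highest density, with 5 of the 12 peaks. The 8 windows had 0.648 Avruch peaks per 100 kb (0.335 to 1.13) against 0.315 over the placed chromosomes, and with LATS1 left out 0.414 (0.166 to 0.852). At LATS1 alone it was 3.13 (1.02 to 7.29). This counts the strong LATS1 peak and its neighbour 59 bp away separately. With gaps of at most 1 kb joined, the 8 windows held 11 Avruch peaks. With 100 kb to each side they held 12, the same count in longer windows. No interval is given here for either setting, so the density above the list's mean was not checked under them. LATS1 was singled out as the highest of 8 windows, and the share of tiles with as many Avruch peaks was not computed. As for TEAD1, the list's mean is a low standard for windows around genes. In each of the other 7 windows the interval included the list's mean, which corresponds to 0.426 to 1.48 peaks in a window, so the absence of Avruch peaks from SAV1, NF2 and AMOTL1 was not distinguishable from the list's mean density.

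**Figure D3:**
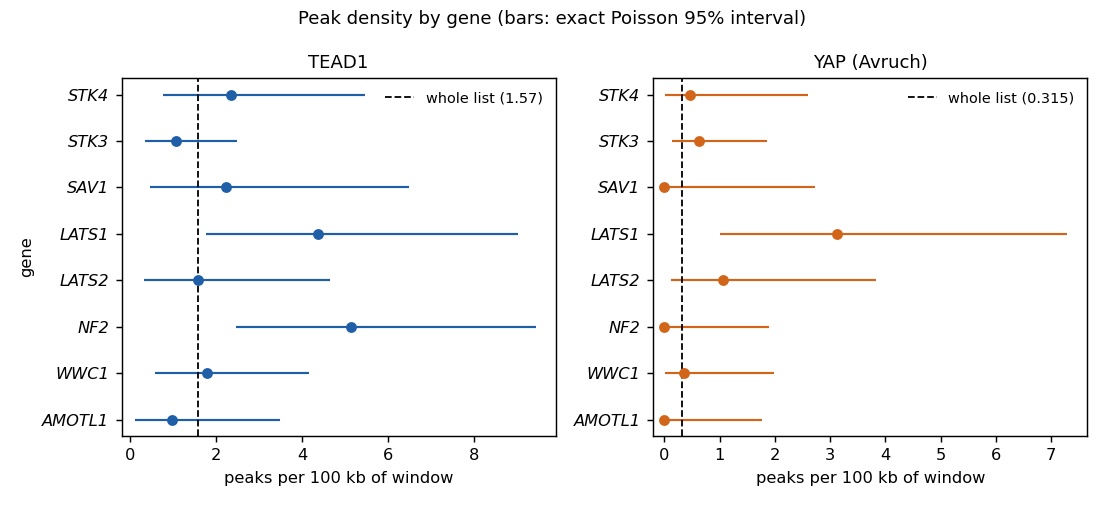
Peaks per 100 kb in the window of each gene for TEAD1 (left) and the Avruch YAP antibody (right), with exact Poisson 95% intervals for counting error and the density of each whole list as a dashed line (1.57 and 0.315). The intervals of NF2 and LATS1 for TEAD1, and of LATS1 for Avruch, lie above the dashed line.

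Apart from the strong LATS1 peak, the YAP peaks near these genes were of ordinary strength. Of the 12, 6 scored above the Avruch median and 6 below it, and their median was 63.64 against 63.75 for the whole list. Their median width was 145 bp against 149 bp. The gap from an Avruch peak to the nearest TEAD1 peak ran from 3.58 to 28.9 kb with a median of 16.6 kb. Over the 9753 Avruch peaks on placed chromosomes the median gap was 8.96 kb, with the middle 50% between 0.679 and 32.5 kb, and over the 7895 of them that overlapped no TEAD1 peak it was 14.9 kb. Within 10 kb of a TEAD1 peak were 3 of the 12, all at LATS1, against 52.1% of Avruch peaks on placed chromosomes. The 3 include the neighbouring LATS1 peaks 59 bp apart. With only 12 peaks this share is imprecise, and the difference was not tested.

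**Figure D4:**
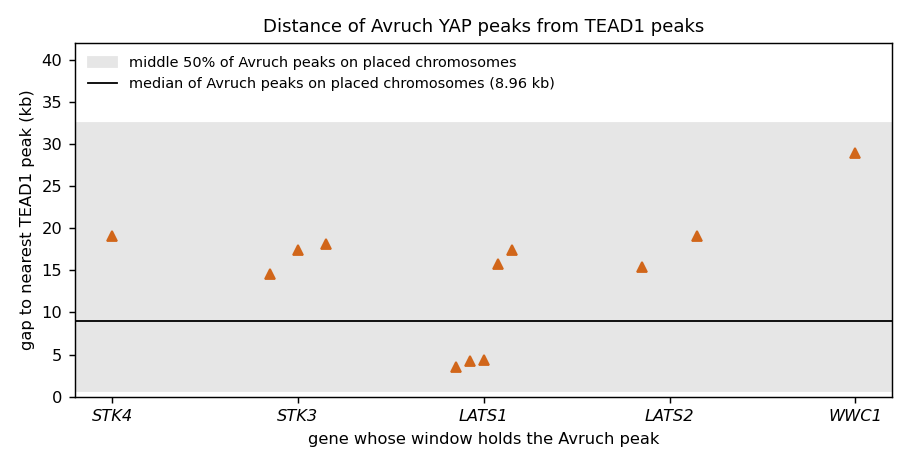
Gap in kb from each of the 12 Avruch YAP peaks to the nearest TEAD1 peak, by gene, with the median (line, 8.96 kb) and the middle 50% (grey) of Avruch peaks on placed chromosomes. The 3 smallest gaps, all under 5 kb, are at LATS1, and no peak is at 0.

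The Santa Cruz list is sparse, with 0.074 peaks per 100 kb over the placed chromosomes, and distances to its nearest peak are a description only. The Santa Cruz antibody gave no peak nearer than 251.4 kb to any of the 8 gene bodies, the nearest being at LATS2. At the other genes the nearest Santa Cruz peak was 390.9 kb (STK3), 429.9 kb (NF2), 479.8 kb (LATS1), 510.3 kb (STK4), 1499 kb (AMOTL1), 1880 kb (SAV1) and 4207 kb (WWC1) away. The strong Avruch peak in LATS1 had no Santa Cruz peak near it. At the mean density of the Santa Cruz list, 0.118 peaks would fall in the LATS1 window, so this absence is not a result about LATS1. The share of all Avruch peaks with a Santa Cruz counterpart was not computed here. Read depth was not known for any library, and peaks below the authors' lowest score, about 50, are not seen in the lists.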

How the data were processed

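The members and comparisons were chosen with earlier results of these data known. Each of the 3 deposited peak lists (1 library per antibody, 5 columns, no header) gives positions and a score per peak. Reads were aligned with Bowtie2 to hg19, per the submitters' processing notes, and the peak names carry the name MACS, per the files. No source used here gives its version, settings or control library. The deposited score is the authors' own, with no stated unit, and was used only within a list. Read depth is unknown.

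Starts were converted to 1-based positions. Overlap meant at least 1 bp, a gap the bases between peak edges, and a cluster at least 3 TEAD1 peaks with gaps of at most 10 kb. Densities used placed chromosomes from base 1 to the last peak, 3094 Mb in 15480 tiles of 200 kb. Shares have Wilson and densities exact Poisson 95% intervals, for counting error only; a count of 0 was given an upper limit of 3 counts. With 1 library per antibody no test between antibodies was made. All 8 genes were named, with the strongest TEAD1 peak of each, the peaks nearest to starts, and every YAP peak. Gene order came from RefSeq (GRCh38.p14), used for neighbours' names alone. Other genes of the pathway were planned and are not analysed here, as no hg19 annotation was used. Counting and overlap were tested on simulated data. Python 3.11.15, pandas 2.3.3 and scipy 1.17.1 were used. Alternatives covered the window, the placement rule, the score threshold, joining, wide peaks and the overlap rule.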

Additional observations from a re-analysis of the deposited data

How the results depend on the processing

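No TEAD1 peak near the 8 genes overlapped a YAP peak, and no Santa Cruz peak lay near them, under any alternative run, windows of 100 kb to each side and centres within 500 bp included. The number of TEAD1 peaks went from 40 to 17 in gene bodies alone, 26 with 10 kb to each side and 22 among the 50% of peaks with the highest scores. The number of Avruch peaks went from 12 to 6 under each of these 3 settings, and the number of genes with a YAP peak from 5 to 3 under each. Narrower windows and fewer peaks give fewer counts by construction. Each gene was also left out in turn, an alternative chosen after seeing the data: Avruch peaks then numbered 7 without LATS1, and TEAD1 peaks 30 to 38. The share of TEAD1 peaks above the list median ranged from 51.4% to 64.7% over all alternatives run for it, within its interval. No paired analysis was possible because each antibody has 1 library. The small number of peaks, 40 and 12, limits every share given here.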
